A study of Mus musculus with 34 samples.

Results

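Ifit1, Ifit2, Ifit3, Rsad2, Isg15, Usp18, Cmpk2, Oasl1, Ddx60 and Herc6 are genes of the antiviral response. Cells switch them on when type I interferon is bound at the cell surface. These 10 genes, of the 32285 in the deposited matrices, were followed by name through every single-cell library of a mouse mammary tumour study. Their level was taken as UMIs (unique molecular identifiers, each standing for 1 captured RNA molecule) per 10000 UMIs of a cell class. A cell with 3 or more of the 10 genes detected was counted as a burst cell. The tumours were MMTV-Wnt1 mammary tumours, driven by a Wnt1 transgene under the mouse mammary tumour virus promoter, grown as transplants in C57BL6j mice; their age is not given in the labels of these libraries. The study asked how the tumour and its immune cells differ after doxorubicin, an anthracycline that blocks topoisomerase II, and after checkpoint antibodies given on top of it.

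There were 2 CD45-positive immune libraries from untreated tumours and 2 from tumours given 5 consecutive doses of doxorubicin at 4 mg/kg and taken 48 h after the last dose. The labels name them replicates 1 and 2 and do not say that they are separate animals, so p-values measure only the spread between these libraries. CD4- and CD8-positive cells were extracted for 6 further libraries, 1 per group. The first of these was untreated and the second was taken 48 h after the same doxorubicin course. The other 4 followed that course with injections every 72 h for 3 doses, and were taken 24 h after the last. They received 200 ug of anti-PD1 with 200 ug of IgG, 200 ug of anti-CTLA4 with 200 ug of IgG, 200 ug of each antibody, or 400 ug of IgG alone. All 4 antibody and IgG groups therefore carry the doxorubicin course, and each is later than the 48 h group. A pooled table of 1 treated and 1 untreated whole tumour was also used. Tumours were digested and labelled cells pulled out on magnetic beads before droplet capture of RNA 3' ends.

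The immune libraries held 16908180 to 69108468 UMIs in 1480 to 3996 kept cells, with a median of 4001.5 to 10468 UMIs per cell. The T cell libraries held 47843716 to 93748407 UMIs in 3445 to 7623 kept cells, with a median of 6704 to 10513. Cells were assigned to a class by their own marker genes. T cells made up 50.4% to 86.6% of the kept cells of the CD4/CD8 libraries, and neutrophils, macrophages and tumour epithelium were present in all 6. Epithelial cells were also present in the CD45 libraries (374 and 104 cells untreated, 46 and 212 after doxorubicin). From 9.6% to 25.3% of a library's cells lay close to a class boundary. The sorted matrices carry no barcode sequences, so shared barcodes were not analysed here. Immune doxorubicin replicate 2 stood apart in its T cells, and untreated replicate 2 in its neutrophils. For the 10 genes, median changes in neutrophils and T cells are given with and without the library concerned. Counts over other gene lists are given with every library included.

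Type I interferons bind the IFNAR1/IFNAR2 receptor, and the kinases JAK1 and TYK2 then activate transcription factors. A complex that includes STAT2 and IRF9 binds a short DNA element, the interferon-stimulated response element, in the promoters of target genes. In tumours such genes can be raised in cancer cells, in myeloid cells and in T cells alike, and anthracyclines are known to provoke the response in cancer cells. The 10 genes differ in what their proteins do. Ifit1, Ifit2 and Ifit3 encode tetratricopeptide-repeat proteins, and Ifit1 binds foreign RNA caps. Rsad2 encodes viperin, which makes a chain-terminating nucleotide, and Cmpk2 encodes a mitochondrial nucleotide kinase that feeds it. Isg15 encodes a ubiquitin-like modifier, Herc6 a ligase that attaches it to proteins in the mouse, and Usp18 the protease that removes it. USP18 also shuts down signalling at IFNAR2. Oasl1 encodes an oligoadenylate synthetase-like protein that limits IRF7 translation, and Ddx60 a helicase linked to RNA sensing.

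In the mouse genome (build GRCm38.p6, RefSeq) Ifit2 lies at chr19:34550550-34576534, Ifit3 at chr19:34583119-34588982 and Ifit1 at chr19:34640889-34650009, all on the plus strand and within 99.5 kb. Rsad2 (chr12:26442743-26456452, minus strand) and Cmpk2 (chr12:26469117-26479837, plus strand) point away from each other 12.7 kb apart. The others are single loci: Isg15 at chr4:156199424-156200818, Oasl1 at chr5:114923143-114937911, Herc6 at chr6:57580992-57665136, Usp18 at chr6:121245906-121270917 and Ddx60 at chr8:61928073-62037704. Ifit3 and Ifit1 have related genes (Ifit3b, Ifit1bl1) that could split their reads, so their levels carry that uncertainty. The sequences were not compared here.

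The core of the response element, GAAANNGAAA, was searched on both strands in RefSeq promoter windows reaching from 250 bases before to 50 bases after each start site. It was present in 5 of the 9 genes with a window: Isg15, Ddx60, Rsad2, Ifit3 and Ifit1. Across all genes with such a window it was present in 1079 of 27025, or 3.99%. Usp18 had no entry, and the windows of Ifit2, Cmpk2, Oasl1 and Herc6 did not hold these letters. A match describes letters, not a bound site. The 200 bases before the start site of the 5 genes are shown because these promoters carry the element; each runs 5′ to 3′ along the gene's strand, and capitals mark every match, TTTCNNTTTC being the same element on the opposite strand. The windows are chr4:156200819-156201018 (minus strand) for Isg15, chr8:61927887-61928086 (plus) for Ddx60, chr12:26456453-26456652 (minus) for Rsad2, chr19:34583329-34583528 (plus) for Ifit3 and chr19:34640689-34640888 (plus) for Ifit1. The Ifit3 window lies inside the gene span given above, so its start site is not the first base of that span. The Ddx60 window runs a few bases into its gene span.
Isg15: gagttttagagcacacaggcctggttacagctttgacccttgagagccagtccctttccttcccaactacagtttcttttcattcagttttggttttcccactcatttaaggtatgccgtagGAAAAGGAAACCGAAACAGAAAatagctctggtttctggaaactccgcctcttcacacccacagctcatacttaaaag
Ddx60: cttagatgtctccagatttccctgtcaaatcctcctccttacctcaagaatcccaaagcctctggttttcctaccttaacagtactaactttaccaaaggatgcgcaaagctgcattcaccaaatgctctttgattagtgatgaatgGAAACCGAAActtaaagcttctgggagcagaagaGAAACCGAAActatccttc
Rsad2: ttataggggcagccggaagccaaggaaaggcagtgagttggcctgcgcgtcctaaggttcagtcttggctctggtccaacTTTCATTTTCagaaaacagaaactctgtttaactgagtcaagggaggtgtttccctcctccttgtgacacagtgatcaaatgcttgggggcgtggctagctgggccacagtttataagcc
Ifit3: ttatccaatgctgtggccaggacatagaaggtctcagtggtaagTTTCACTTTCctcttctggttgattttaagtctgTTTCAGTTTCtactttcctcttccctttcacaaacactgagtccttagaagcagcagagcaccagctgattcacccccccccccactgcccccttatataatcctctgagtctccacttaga
Ifit1: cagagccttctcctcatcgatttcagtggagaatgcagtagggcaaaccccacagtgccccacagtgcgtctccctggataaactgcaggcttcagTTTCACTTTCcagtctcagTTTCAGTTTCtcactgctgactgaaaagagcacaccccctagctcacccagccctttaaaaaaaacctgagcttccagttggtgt

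In Isg15, 3 overlapping matches began 78, 72 and 66 bases before the start site on the gene's own strand. Ddx60 held matches at 53 and 19 bases on the same strand. The other 3 genes held theirs on the opposite strand, at 120 bases in Rsad2, 156 and 122 in Ifit3, and 104 and 85 in Ifit1.

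**Figure D1:**
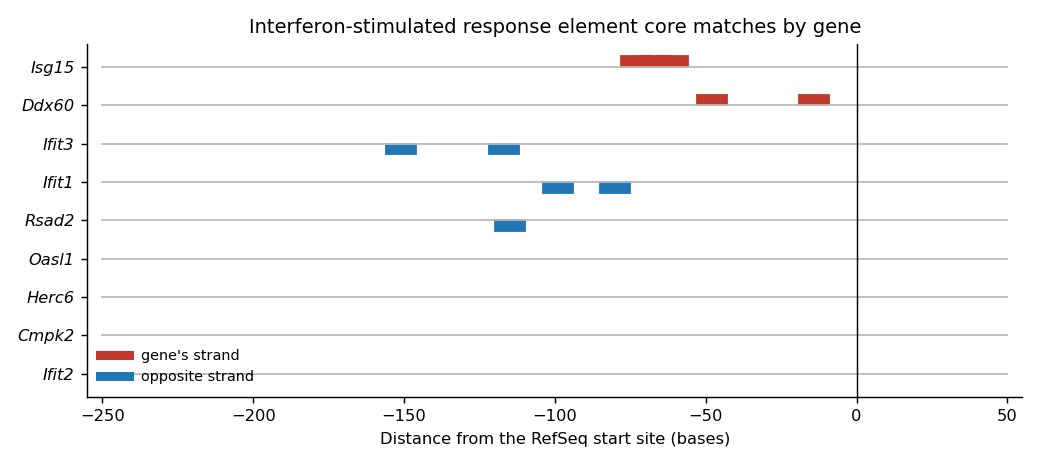
Position of each GAAANNGAAA match in the promoter windows of 9 genes, of which 5 held a match. The horizontal axis is the distance from the start site in bases, negative before it. Red marks lie on the gene's strand and blue marks on the opposite strand. The Isg15 matches cluster from 78 to 66 bases before the start, and Ddx60 has the match nearest its start, at 19.

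In the CD45 libraries the untreated neutrophils held the highest level of these genes of the classes compared, and the neutrophils after doxorubicin held far less. Summed over the 10 genes, untreated neutrophils held 30.69 and 94.98 UMIs per 10000 in replicates 1 and 2, against 6.85 and 8.84 after doxorubicin. For each of the 10 genes both untreated libraries lay above both treated ones. The share of all genes separated like this was not counted, in this class or in others, so non-overlap is description only. By edgeR's quasi-likelihood test on summed counts, with Benjamini-Hochberg adjustment over all genes, 6 of the 10 fell and none rose, where 1.21% of 7743 genes tested were called (80 lower, 14 higher). The median log2 change of the 10 was -3.31, against 0.02 over all genes tested. Without untreated replicate 2 it was -2.07, against 0.03.

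Among the genes of the Isg15 pathway, Isg15 stood at 13.2 and 34.7 UMIs per 10000 in untreated neutrophils and at 3.30 and 3.04 after doxorubicin. Its log2 change was -3.22 (SE 0.51, edgeR adjusted p = 0.0124). Herc6 stood at 0.87 and 2.57 against 0.13 and 0.20 (log2 change -3.58, SE 0.57, edgeR adjusted p = 0.0200). The ligase gene thus fell along with the modifier gene. The protease gene Usp18 stood at 0.40 and 1.77 against 0.14 and 0.19, and its change of -2.85 (SE 0.75) did not pass the test (edgeR adjusted p = 0.199).

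Both neighbouring enzyme genes on chromosome 12 fell as well. Rsad2 stood at 8.69 and 31.0 UMIs per 10000 in untreated neutrophils against 1.68 and 2.84 after doxorubicin (log2 change -3.46, SE 0.66, edgeR adjusted p = 0.0456). Its neighbour Cmpk2 stood at 0.79 and 1.77 against 0.12 and 0.21 (log2 change -3.13, SE 0.47, edgeR adjusted p = 0.0124). Rsad2 was second only to Isg15 in UMIs in each of the 4 libraries.

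Of the IFIT genes, Ifit2 had the largest log2 change of the 10 genes, -4.53 (SE 0.72, edgeR adjusted p = 0.0353), from 0.98 and 3.65 UMIs per 10000 to 0.14 and 0.10. Ifit1 stood at 3.11 and 11.5 against 0.62 and 1.11, and Ifit3 at 0.88 and 3.76 against 0.11 and 0.32. Their changes of -3.40 (edgeR adjusted p = 0.0838) and -3.66 (edgeR adjusted p = 0.316) did not pass. The helicase gene Ddx60 fell from 0.98 and 1.81 to 0.29 and 0.30 (log2 change -2.44, SE 0.40, edgeR adjusted p = 0.0124). Oasl1 stood at 0.82 and 2.50 against 0.33 and 0.52, and did not pass (log2 change -2.19, edgeR adjusted p = 0.121).

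**Figure D2:**
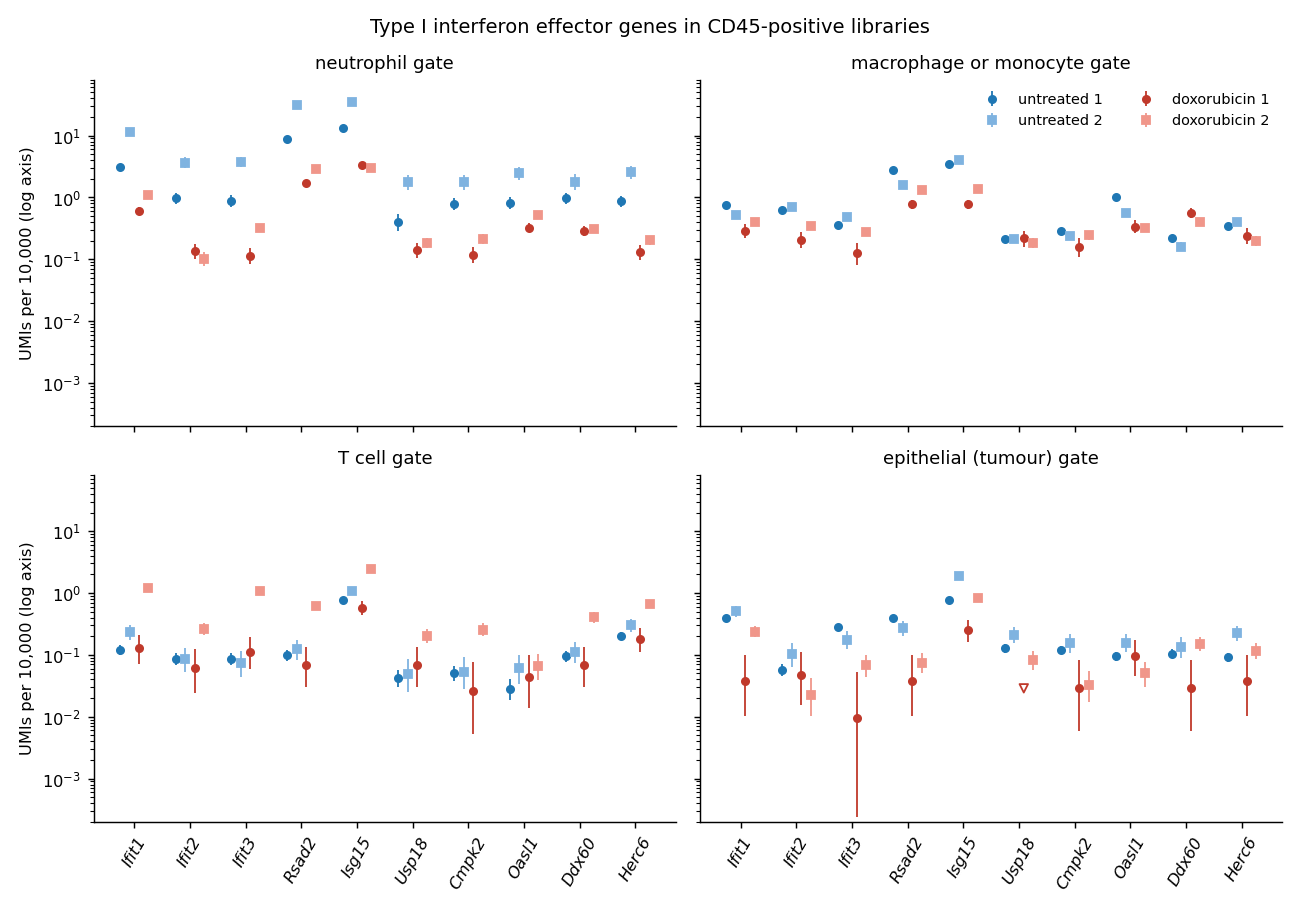
UMIs per 10000 (log axis) of each of the 10 genes in the 4 CD45-positive libraries, in 4 panels by cell class. Points are single libraries, bars are 95% Poisson intervals for counting error, and an open triangle marks a gene listed at 0, drawn at the limit of 3 counts. In neutrophils Isg15 runs from 3.04 to 34.7, with both untreated libraries above both treated ones.

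The class held its defining markers in all 4 libraries: Csf3r, the receptor for granulocyte colony-stimulating factor, stood at 7.78 to 14.9 UMIs per 10000 and Ly6g at 0.197 to 0.832. The call count in neutrophils depended on a single small library. Untreated replicate 2 held 86 neutrophils, against 322, 753 and 1798 in untreated replicate 1 and doxorubicin replicates 1 and 2. Without it 3 of the 10 genes were called (Ifit2, Cmpk2 and Herc6) of 15 genes in all, without any one of the others all 10 were, and all 10 stayed lower in each case. The log2 change of Isg15 was then -2.14, that of Rsad2 -2.04 and that of Ddx60 -1.81, and none of these 3 was called. With cells classed by clusters in place of markers, all 10 were lower with a median log2 change of -2.49, but none was called and neither was any other gene (smallest edgeR adjusted p of the 10, 0.0841). Over the alternatives tried, the edgeR or DESeq2 adjusted p of Isg15 ran from 5.43e-11 to 0.189. Neutrophils made up 9.0% and 4.8% of untreated cells and 50.88% and 44.99% after doxorubicin. Macrophage markers in the gated neutrophils summed to 6.74 and 6.11 UMIs per 10000 untreated and 9.05 and 9.16 after doxorubicin, with 1 of the 11 markers, Ccr2, at 0 in untreated replicate 2 and none in the other 3 libraries. Their part in the result was not tested.

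Within the CD45 libraries, bursts at equal depth were also most frequent in untreated neutrophils. After each cell was thinned to 1000 UMIs, 19.7% of 315 neutrophils (exact binomial interval 15.4% to 24.5%) in untreated replicate 1 and 44.9% of 78 (33.6% to 56.6%) in untreated replicate 2 were burst cells. After doxorubicin the shares were 2.47% of 689 (1.44% to 3.92%) and 5.18% of 1717 (4.18% to 6.34%). The treated intervals did not reach the untreated ones. Intervals cover counting error only. Without thinning the shares were 30.8% and 54.7% against 7.70% and 9.51%, at median depths of 2939 and 3095 against 4781 and 3020 UMIs. Thinning left out 7 and 8 untreated and 64 and 81 treated neutrophils.

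Burst cells are picked by detection of these same genes, so a large share of the signal in them follows in part from the rule. The values below are descriptions. Untreated replicate 2, with 86 gated neutrophils, was too small for them to be taken. Burst cells carried 75.0% of the thinned UMIs of the 10 genes in the neutrophils of untreated replicate 1, and 46.2% and 67.7% in the treated libraries. Isg15 was detected in 95.2% of the burst cells of untreated replicate 1 and in 94.1% and 91.0% of those of the treated libraries. Rsad2 was found in 83.9%, 64.7% and 83.2%. At the other end, none of the 10 genes was detected in 45.4% of the thinned neutrophils of untreated replicate 1, against 77.5% and 79.9% after doxorubicin.

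**Figure D3:**
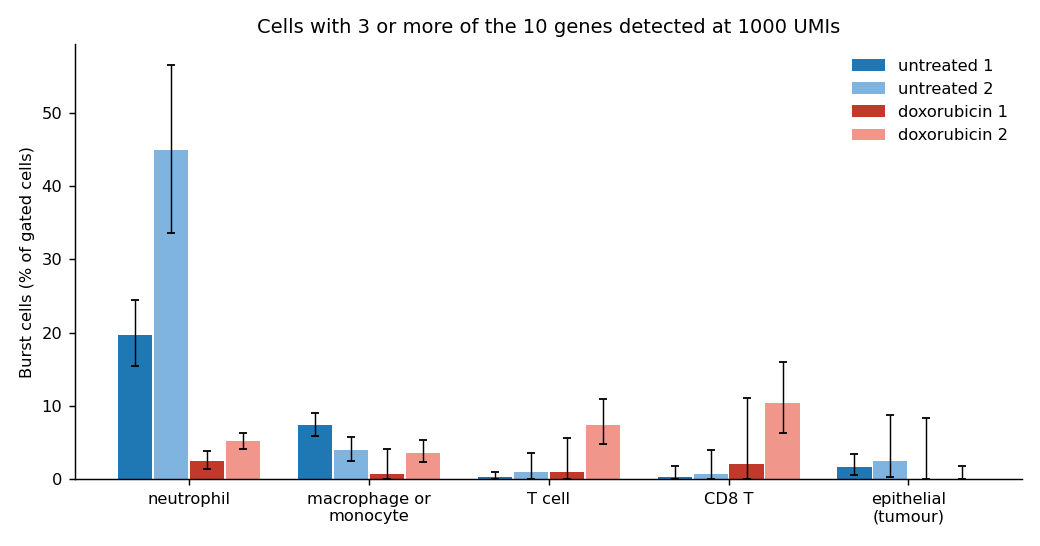
Share of cells (percent, thinned to 1000 UMIs) with 3 or more of the 10 genes detected, by cell class and CD45-positive library, with exact 95% binomial intervals. Untreated neutrophils reach 19.7% and 44.9%, and T cells of doxorubicin replicate 2 reach 7.44% where the other 3 libraries lie at or under 1.04%.

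Macrophages and monocytes of untreated tumours held less of these genes than neutrophils did, and part of the list fell after doxorubicin. Their sum over the 10 genes was 10.0 and 8.97 UMIs per 10000 untreated and 3.70 and 5.12 after doxorubicin. By edgeR's quasi-likelihood test with Benjamini-Hochberg adjustment 4 of the 10 genes fell and 1, Ddx60, rose, where 7.52% of 10876 genes were called (407 lower, 411 higher). The median log2 change of the 10 was -0.96, against 0.00 over all genes tested.

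Isg15 fell from 3.46 and 4.10 UMIs per 10000 to 0.78 and 1.39 in macrophages (log2 change -1.84, SE 0.29, edgeR adjusted p = 0.00613). Ifit2 fell from 0.62 and 0.70 to 0.21 and 0.35 (log2 change -1.24, SE 0.25, edgeR adjusted p = 0.0160). Oasl1 fell from 1.03 and 0.55 to 0.34 and 0.33 (log2 change -1.32, edgeR adjusted p = 0.0314), and Herc6 from 0.35 and 0.41 to 0.24 and 0.20 (log2 change -0.86, edgeR adjusted p = 0.0405). The treated libraries lay below both untreated ones for each of these 4 genes, a separation not counted over all genes. Ddx60 went the other way, from 0.22 and 0.16 to 0.57 and 0.40, again without overlap (log2 change 1.27, SE 0.25, edgeR adjusted p = 0.0133). Its log2 change lay between 1.03 and 1.53 in all 10 alternatives and was called in 7 of them.

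The other 5 genes did not pass in macrophages. Rsad2 stood at 2.77 and 1.62 UMIs per 10000 against 0.77 and 1.34 (log2 change -1.09, edgeR adjusted p = 0.104). Usp18 stood at 0.21 and 0.21 against 0.22 and 0.19, and overlapped between groups (edgeR adjusted p = 0.741). Without doxorubicin replicate 1, which held 144 macrophages, none of the 10 genes was called, and without doxorubicin replicate 2 only 1 was. Neutrophil markers in the gated macrophages summed to 2.03 and 2.25 UMIs per 10000 untreated and 7.37 and 3.43 after doxorubicin, with Ly6g alone at 0 in all 4 libraries. Their part in the result was not tested.

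Macrophage bursts were fewer. They made up 7.35% of 1115 and 3.95% of 608 macrophages untreated, against 0.769% of 130 and 3.65% of 631 after doxorubicin, and the intervals of untreated replicate 2 and doxorubicin replicate 2 overlapped. Their make-up differed in values from that of neutrophils: Ifit2 was detected in 57.3% and 54.2% of untreated macrophage bursts but in 25.8% of the neutrophil bursts of untreated replicate 1. Without thinning, 44.8% and 31.0% of untreated macrophages and 26.39% and 19.97% of treated ones held 3 or more of the genes. At the macrophages' greater depth (median 11807.5 and 9677.5 UMIs untreated), the share in untreated replicate 1 was thus above that in its neutrophils (30.8%).

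Whether the change differed between the classes was tested with an interaction term, keeping the class sums of a library together as a block. The differences below come from this joint fit and do not equal the separately fitted class changes subtracted. The change was more negative in neutrophils for 6 of the 10 genes by edgeR's quasi-likelihood test with Benjamini-Hochberg adjustment, where 2.16% of 11321 genes were called. Ddx60 differed most, by -3.50 on the log2 scale (SE 0.36, edgeR adjusted p = 2.06e-18), since it fell in one class and rose in the other. The fit rested on 4 libraries with 2 class sums each, and this SE was below that of the neutrophil change alone (0.40). The size of this p should therefore not be read as strength of replication. Ifit2 differed by -2.90, Cmpk2 by -2.51, Herc6 by -2.41, Usp18 by -2.32 and Ifit3 by -2.13. Isg15 differed by -1.01, Rsad2 by -1.94, Ifit1 by -2.07 and Oasl1 by -0.59, and these 4 did not pass (edgeR adjusted p = 0.183, 0.414, 0.219 and 0.914). Leaving out untreated replicate 2 kept only Ddx60 as a call. Leaving out doxorubicin replicate 1 gave 3 calls, and leaving out untreated replicate 1 gave 9.

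**Figure D4:**
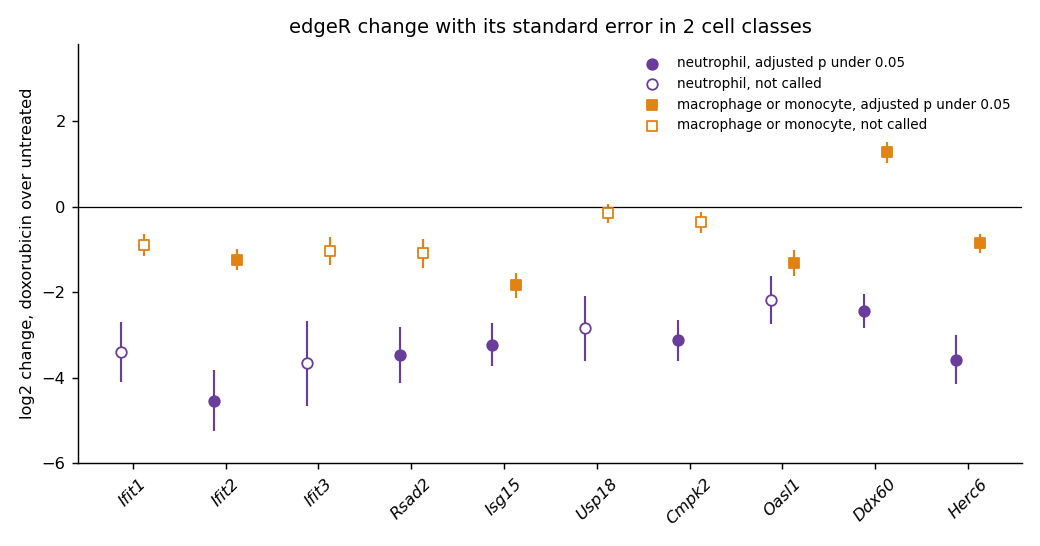
Log2 change after doxorubicin (edgeR, with standard error) of each of the 10 genes in neutrophils and in macrophages or monocytes, with filled points for an adjusted p under 0.05. Ddx60 lies at -2.44 in neutrophils and at 1.27 in macrophages, and the other 9 genes lie below 0 in both.

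T cells of the CD45 libraries showed no call. Summed over the 10 genes they held 1.60 and 2.16 UMIs per 10000 untreated and 1.34 and 7.25 after doxorubicin, so doxorubicin replicate 2 stood above the other 3 libraries. Ifit1 stood at 0.12 and 0.23 against 0.129 and 1.205, and Ifit3 at 0.09 and 0.07 against 0.11 and 1.08. Of the 7 genes tested (Isg15, Rsad2 and Oasl1 lay under 0.1 of their level in the highest class) none was called by edgeR or by DESeq2, and 1, Usp18, had an unadjusted edgeR p under 0.05. The percentage of the 9253 genes called was 0 by edgeR, with 618 at an unadjusted p under 0.05, and DESeq2 called 17. The median log2 change of the 7 was 1.51 with doxorubicin replicate 2 and -0.44 without it, when 5 of the 7 turned lower. Without doxorubicin replicate 1, 4 were called.

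Bursts in T cells followed the same library. They were 0.358% of 838 and 1.01% of 198 T cells untreated, 1.04% of 96 in doxorubicin replicate 1 and 7.44% of 309 in replicate 2 (exact binomial interval 4.777% to 10.96%). Within the CD8 T cells of replicate 2 the share was 10.5% of 172. Ifit1 and Ifit3 were each detected in 73.9% of the replicate 2 T cell bursts, and Oasl1 in none of the 23. Neutrophil markers in gated T cells summed to 0.656 and 1.17 UMIs per 10000 untreated and to 3.92 and 7.23 after doxorubicin, and macrophage markers to 1.82 and 2.47 against 1.72 and 2.69. Ifit3 in the T cells of replicate 2 (1.08) was above its level in the neutrophils (0.32) and macrophages (0.27) of the same library. The sum over the 10 genes there was 7.25 in T cells, 8.84 in neutrophils and 5.12 in macrophages. The part of RNA from other cells in the T cell values was not tested.

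Tumour epithelial cells carried over in the CD45 libraries also held less after doxorubicin. Their sum over the 10 genes was 2.42 and 3.85 UMIs per 10000 against 0.575 and 1.67. Of 5 genes tested, Cmpk2 and Ifit3 fell, by 2.25 and 2.36 on the log2 scale (edgeR adjusted p = 0.0130 and 0.0169), where 10.9% of 10874 genes were called. Cmpk2 stood at 0.12 and 0.15 against 0.03 and 0.03, and Ifit3 at 0.28 and 0.18 against 0.01 and 0.07. Usp18 was listed at 0 in doxorubicin replicate 1, where 46 cells were gated. Without untreated replicate 1, and without untreated replicate 2, 1 gene was called. Macrophage markers in these cells summed to 8.28 and 11.1 UMIs per 10000 against 4.71 and 9.29. Their part in the result was not tested.

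Over whole immune libraries, with every kept cell summed, the fall in neutrophils was not visible. The sum of the 10 genes was 4.68 and 6.73 UMIs per 10000 untreated and 4.30 and 5.73 after doxorubicin, and the groups overlapped. None of the 10 was called by edgeR's quasi-likelihood test, where 5.5% of 16068 genes were. At an unadjusted p under 0.05 there were 2, Ddx60 (log2 change 0.71, edgeR adjusted p = 0.0800) and Ifit2 (-0.92, edgeR adjusted p = 0.108), and DESeq2 called 2 of the 10 among 2523 genes in all. In such sums fewer cells of a class and less RNA per cell cannot be told apart, and the share of neutrophils differed between the groups as given above.

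The rest of the pathway was read from fixed lists of ligands, receptors, signalling genes, restraints, sensors, other type I effectors and genes that lean to interferon gamma. Among ligands, Ifnb1, the gene of interferon beta, had 308 UMIs in 115 cells of untreated replicate 1 and 34 in 7 cells of untreated replicate 2, against 0 and 11 (in 2 cells) after doxorubicin. A single cell of untreated replicate 2 held 21 of its 34. The fitted change in whole libraries did not pass (log2 change -3.98, SE 1.22, edgeR adjusted p = 0.118). Ifng, the gene of interferon gamma, fell from 0.435 and 0.395 UMIs per 10000 to 0.0722 and 0.0353 (log2 change -3.07, edgeR adjusted p = 0.0199). Ifna1, Ifna4 and Ifna5 had no UMI in any of the 10 sorted libraries, and Ifna2 had 22.

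In neutrophils, where 1.21% of all genes were called, 4 of 9 signalling genes fell and none rose, among them Stat2 (log2 change -2.17) and Irf1 (-2.44). Stat2 stood at 0.651 and 1.34 UMIs per 10000 against 0.255 and 0.238. Of 8 sensors 2 fell, the RNA sensor Ifih1 (-2.18) and Zbp1 (-2.87), and of 31 other type I effectors 11 fell, led by Slfn5 (-2.19), Xaf1 (-3.12) and Rnf213 (-2.35). Of 17 genes leaning to interferon gamma 9 fell, including the antigen-processing genes Psmb9 (-2.51), Tap1 (-2.70) and Psmb8 (-2.19). None of 6 receptor genes or 6 restraints was called, and no ligand was tested there. The list medians were -1.58, -1.27, -1.57 and -2.94 for signalling genes, sensors, other effectors and interferon gamma genes, against 0.02 over all genes. These list counts and medians include untreated replicate 2 and were not taken without it. With cells classed by clusters no gene was called in neutrophils.

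In macrophages, where 7.52% of all genes were called, 14 of 19 genes leaning to interferon gamma fell, with a median of -2.02. Cxcl10, a chemokine that draws T cells, fell from 7.55 and 6.51 UMIs per 10000 to 0.56 and 0.81 (log2 change -3.41, edgeR adjusted p = 0.000194). Igtp and Gbp5, interferon-inducible GTPases, fell by 2.91 and 2.65 on the log2 scale. Of 37 other type I effectors 6 fell, with a median of -0.46, and of 14 sensors 3 fell (Zbp1, Ifih1 and Cgas). Irf1 fell among the signalling genes (log2 change -2.26, edgeR adjusted p = 0.00487), and Socs3 and Socs1 were the 2 of 6 restraints that fell. The interleukin-10 receptor chain Il10rb rose (log2 change 0.85, edgeR adjusted p = 0.0298), as the single receptor gene called of 5. In T cells edgeR called no gene of 9253, the lists included, and DESeq2 called 17. In epithelial cells, where 10.9% of all genes were called, 13 of 15 genes leaning to interferon gamma fell, and the chemokine gene Cxcl9 stood at 2.01 and 2.49 UMIs per 10000 untreated, against a listed 0 and 0.0025 after doxorubicin. Over whole libraries, where 5.5% were called, 10 of 19 such genes fell and none of 38 other type I effectors was called.

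The T cell libraries had 1 sample per group, so no test was possible there and their differences have no replicate check. Ratios are given with 95% Poisson intervals, which cover counting error only and are too narrow where few cells hold most of the UMIs. Between untreated and 48 h after doxorubicin the sum of the 10 genes in T cells was 2.22 and 2.18 UMIs per 10000, a ratio of 0.98 (0.95 to 1.02). That near-equal sum hid opposite parts. Isg15 was lower, at 0.85 against 1.33 (ratio 0.64, 0.61 to 0.67), while the other 9 genes had ratios from 1.21 to 2.12. Cmpk2, at 2.12 (1.63 to 2.78), was the single gene past 2-fold, where 6.65% of 11650 genes were. Within CD8 T cells 3 of the 10 were past 2-fold higher, where 6.84% of 10855 were past 2-fold. The other parts went the other way. Of 5 genes with enough UMIs in conventional CD4 T cells, 0 were higher and 2 lower, where 4.57% of 7947 were past 2-fold. Of 5 in regulatory T cells, 0 were higher and 1 lower, where 4.53% of 7480 were. CD8 T cells made up 1492 of 2574 gated T cells untreated and 2734 of 4138 at 48 h.

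Tumour epithelial cells of these libraries differed more between those groups. Their sum was 1.46 UMIs per 10000 untreated and 2.86 at 48 h, a ratio of 1.96 (1.88 to 2.04), and 7 of the 10 genes were past 2-fold higher, where 21.9% of 12679 genes were past 2-fold. Ifit3 had the highest ratio, 3.599 (3.02 to 4.32), and Usp18 the lowest, 1.498. This order is the reverse of that in the epithelial cells of the CD45 libraries, where both treated libraries lay below both untreated ones.

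Neutrophils in the CD4/CD8 libraries also ran opposite to those of the CD45 libraries. They held 9.53 UMIs per 10000 over the 10 genes in the untreated library (59 cells, 152 UMIs) and 16.8 at 48 h after doxorubicin (230 cells), a ratio of 1.76 (1.48 to 2.10). Isg15 differed little, with a ratio of 1.08 (0.877 to 1.34), and Rsad2 had 2.86 (1.89 to 4.50). Of the 4 genes with 50 UMIs in the pair, 3 were past 2-fold higher. Of all 1894 genes with that many, 21.1% were past 2-fold (347 higher, 52 lower), and their median log2 ratio was 0.361. Genes at large thus also read higher at 48 h in this pair. Bursts made up 2 of 58 neutrophils (3.45%) untreated and 19 of 222 (8.56%) at 48 h. Macrophages moved the same way and less, from 3.66 to 4.41 (ratio 1.204, 1.12 to 1.29). The lower level after doxorubicin seen in the CD45 libraries was therefore not seen in these 2 libraries, and the difference between the 2 sets was not tested.

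IgG at the later time stood above 48 h after doxorubicin in T cells, at 3.803 against 2.18 UMIs per 10000 (ratio 1.74, 1.69 to 1.79). Isg15 alone was past 2-fold, at 1.97 against 0.85 (ratio 2.31, 2.21 to 2.42), where 4.26% of 11794 genes were, and 1 gene was within CD8 T cells, where 3.89% of 11128 were. In regulatory T cells the ratio of the sums was 3.14 (2.76 to 3.58). In epithelial cells the sum stood at 5.81 against 2.86, with Isg15 (3.12) and Usp18 (2.14) past 2-fold, where 21.2% of 12486 were. The later time, the IgG and the library differed together in this pair and cannot be told apart.

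The 3 antibody groups were each set against the same IgG library, so their comparisons share it. In T cells the sum of the 10 genes was 3.803 UMIs per 10000 with IgG, 1.83 with anti-PD1, 2.64 with anti-CTLA4 and 1.86 with both. With anti-PD1, 8 of the 10 genes were past 2-fold lower, where 5.67% of 11508 genes were past 2-fold. With anti-CTLA4 none was, where 3.2% of 11698 were, and with both antibodies 6 were lower, where 3.94% of 11726 were. The make-up of the gate differed: 2170 of its 2796 cells were CD8 T cells with IgG, 1992 of 3202 with anti-PD1, 2219 of 2590 with anti-CTLA4 and 2350 of 2987 with both. Within CD8 T cells 5 of the 10 genes were past 2-fold lower with anti-PD1 (4.83% of 10761 genes past 2-fold), none with anti-CTLA4 (3.96% of 11264) and 4 with both (4.31% of 11191). The IgG library was the highest of the 6 in T cells, for the sum and for each of the 10 genes. The anti-PD1 and combination values were close to each other and below untreated.

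Usp18 had the lowest T cell ratio with anti-PD1, 0.20 (0.15 to 0.26), from 0.12 UMIs per 10000 with IgG to 0.02. Ddx60 and Cmpk2 followed at 0.28 and 0.29, then Rsad2 at 0.34, Ifit1 at 0.37, Ifit3 at 0.42, Herc6 at 0.48 and Oasl1 at 0.50. Ifit2 at 0.54 and Isg15 at 0.57 were the 2 genes short of 2-fold. With both antibodies Oasl1 was lowest, at 0.23, and Herc6 was nearest to IgG, at 0.75. With anti-CTLA4 the 10 ratios lay between 0.59 and 0.93.

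**Figure D5:**
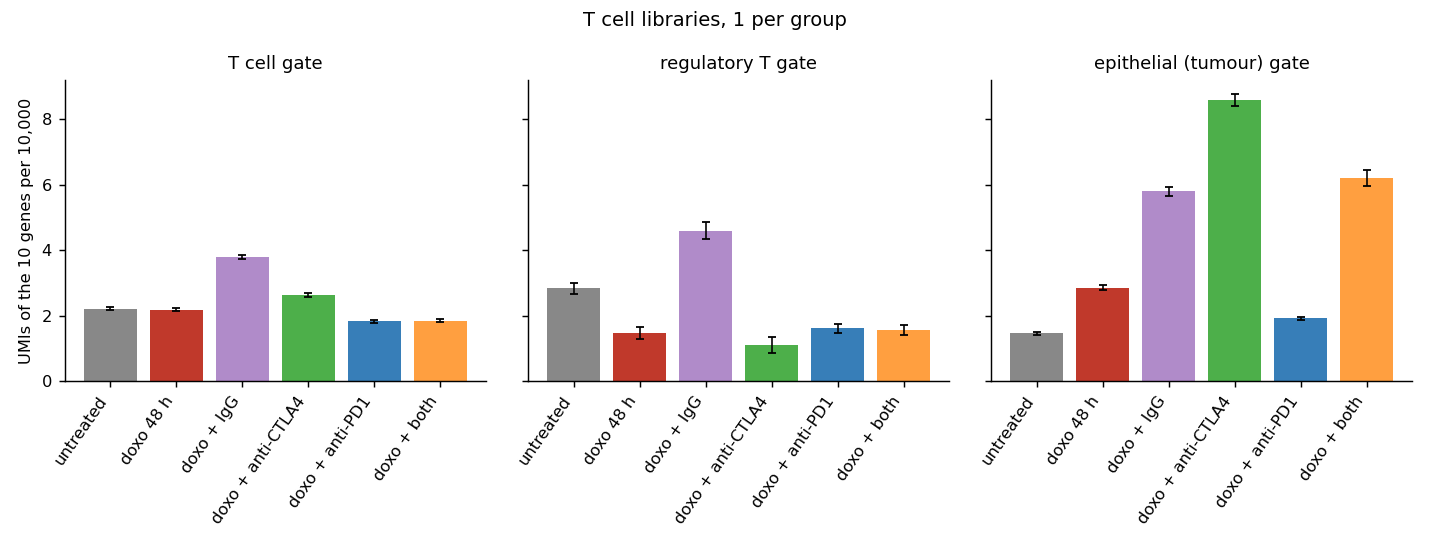
Summed UMIs per 10000 of the 10 genes in the 6 CD4/CD8 libraries, in panels for T cells, regulatory T cells and tumour epithelial cells, with 95% Poisson intervals and 1 library per group. IgG is highest in T cells (3.803) and regulatory T cells (4.60), and anti-CTLA4 is highest in epithelial cells (8.60).

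Burst cells in the T cell gate numbered 21 of 2568 (0.818%) untreated, 51 of 4126 (1.24%) at 48 h, 65 of 2789 (2.33%) with IgG, 46 of 2587 (1.78%) with anti-CTLA4, 24 of 3193 (0.752%) with anti-PD1 and 25 of 2983 (0.838%) with both. The ratio to IgG was 0.32 (0.19 to 0.52) for anti-PD1, 0.36 (0.22 to 0.58) for both and 0.76 (0.51 to 1.13) for anti-CTLA4, whose interval includes 1. Counted without Isg15, it was 0.137 for anti-PD1 and 1.04 for anti-CTLA4. Without thinning the shares were 9.40%, 9.43%, 17.9%, 16.7%, 5.18% and 9.91% in the same order. Isg15 was in 84.3% to 100% of these burst cells. Macrophage markers in the T cell gate summed to 0.64 to 3.12 UMIs per 10000 (3.12 with anti-PD1). Median depth in the gate ran from 5886.5 UMIs with anti-PD1 to 10350 with anti-CTLA4. The part of either in these differences was not tested.

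Regulatory T cells gave lower values than IgG with all 3 treatments. Their sum was 4.60 UMIs per 10000 with IgG, 1.62 with anti-PD1, 1.10 with anti-CTLA4 and 1.57 with both. The ratio to IgG was 0.35 (0.32 to 0.39), 0.24 (0.19 to 0.30) and 0.34 (0.30 to 0.38) in that order. The anti-CTLA4 sum rested on 86 UMIs in 48 cells, 52 of them from Isg15, so its single genes were not compared. Thinned to 1000 UMIs, none of those 48 cells was a burst cell (exact binomial upper bound 7.40%), and without thinning 4 were (8.33%).

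In epithelial cells anti-CTLA4 stood above IgG and anti-PD1 below it. The sum was 5.81 UMIs per 10000 with IgG, 8.60 with anti-CTLA4, 1.93 with anti-PD1 and 6.20 with both. With anti-PD1 9 of the 10 genes were past 2-fold lower (5.13% of 12585 genes past 2-fold), and with anti-CTLA4 5 were past 2-fold higher (3.8% of 11541). With both antibodies none was past 2-fold (6.56% of 10863). The genes higher with anti-CTLA4 were Ifit2 (2.65), Ifit3 (2.30), Herc6 (2.29), Rsad2 (2.25) and Ifit1 (2.20). These libraries held 273, 285, 1331 and 135 epithelial cells in the order IgG, anti-CTLA4, anti-PD1, both, and macrophage markers in them summed to 8.6 to 12.4. Their part in the result was not tested.

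The pooled whole-tumour table split into 2 barcode sets of 1508 and 2508 cells that share no barcode, and neither set is tied to a tumour, so no treatment was compared. Neutrophils again held the most over the 10 genes, at 15.4 UMIs per 10000 (23.1 in one set, 9.49 in the other). T cells held 3.74, epithelial cells 2.75 and macrophages 2.45. Thinned to 1000 UMIs, bursts made up 8.0% of 775 neutrophils, 2.75% of 1273 epithelial cells, 2.57% of 623 macrophages and 2.14% of 374 T cells. Without thinning the shares were 13.9%, 26.5%, 12.2% and 13.6%, which put epithelial cells first.

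Over the 31 sums of 100 or more cells of 1 class in 1 sorted library, the level of the 10 genes together ran from 1.46 UMIs per 10000 (epithelial, untreated CD4/CD8 library) to 30.7 (neutrophils, untreated replicate 1 of the CD45 libraries). The correlation of each gene with the mean of the other 9 ran from 0.68 for Herc6 to 0.96 for Cmpk2. Among these 31 sums, which leave out the 86 neutrophils of untreated replicate 2, the peaks differed: Ifit3 was highest in the T cells of doxorubicin replicate 2 (1.08), Usp18 in the epithelial cells with anti-CTLA4 (0.475) and Oasl1 in the macrophages with anti-CTLA4 (1.13). In the 86 neutrophils left out, all 3 stood higher, at 3.76, 1.77 and 2.50. Of 5930 other genes, those most like the 10 in pattern were Oas3 (r = 0.90), Samhd1 (0.90), Stat2 (0.87), Gbp5 (0.86), Ifih1 (0.84), Sp140 (0.83), Slfn8 (0.83) and Parp10 (0.82). These correlations are descriptions over sums that share libraries and depth, and the mean of the 10 itself had r = -0.44 with the log2 UMIs per cell.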

How the data were processed

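Single-cell 3' RNA libraries of CD45-positive (4) and CD4/CD8-positive (6) cells were analysed. The deposited matrices hold UMI counts; their headers name Cell Ranger 6.0.0, and the labels name the build GRCm38. They carry no gene names, so rows were named by the gene order of the deposited pooled table. Log summed counts of the same row correlated at 0.954 or more, against at most 0.354 after shifts of up to 50 rows. Cells with at least 500 UMIs, 200 genes and under 20% mitochondrial counts were kept. A cell entered a class with 3 or more of its markers detected and a runner-up class at no more than 0.5 of that; no doublet caller was run, and this rule drops cells of mixed markers. The class sums of each library (30 or more cells) went into edgeR 4.0.16 under R 4.3.3 (filterByExpr, TMM, robust quasi-likelihood, adjusted p under 0.05), leaving out genes under 0.1 of their level in the highest class. DESeq2 1.42.0, other size factors, no low-count filter, clusters (scanpy 1.11.5), a replicate block and leaving out each library were alternatives. The epithelial comparison was added after levels had been seen. In libraries without replicates a gene needed 50 UMIs in the pair and a change past 2-fold. Pattern likeness used log2(UMIs per 10000 + 0.1). The scripts were checked on simulated data. The 10 genes are all named; of each list only called genes, at most the 3 with the smallest adjusted p, and the 8 genes most alike in pattern. The genes and lists were chosen with earlier results of these data known. The 12 bulk columns that match no label, and the chromatin libraries, were not used here, and 1 gene of the lists is not reported here.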

Additional observations from a re-analysis of the deposited data

Results flagged for a closer look

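The change after doxorubicin differed between neutrophils and macrophages or monocytes for 6 of the 10 genes, by the interaction term of edgeR's quasi-likelihood test over 4 libraries. In that joint fit the difference on the log2 scale, neutrophil minus macrophage, was -3.50 for Ddx60, -2.90 for Ifit2 and -2.51 for Cmpk2. It was -2.41 for Herc6, -2.32 for Usp18 and -2.13 for Ifit3. These values do not equal the separately fitted class changes subtracted. Without untreated replicate 2, whose 86 neutrophils held the highest levels, Ddx60 alone was called.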

How the results depend on the processing

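The number of the 10 genes called in neutrophils was 6 and became 10 without the low-count filter, 3 to 10 when 1 library was left out and 0 with cluster classes. In macrophages 5 became 8 without the filter, 0 to 6 with 1 library left out and 1 with clusters, where Usp18 (0.083) and Cmpk2 (0.47) turned positive. In T cells leaving out 1 library gave 0 to 4, and without doxorubicin replicate 2 the changes turned negative for Ifit1 (-0.39), Ifit2 (-0.51), Cmpk2 (-0.999), Ddx60 (-0.56) and Herc6 (-0.44), against highs without doxorubicin replicate 1 of 2.71, 1.48, 2.16, 1.85 and 1.32. In epithelial cells 2 became 1 to 3 with 1 library left out, where Ddx60 ran from -2.06 to 0.19 (positive without doxorubicin replicate 1), and 1 with clusters. The interaction count of 6 became 3 with clusters and 1 to 9 with 1 library left out, and Oasl1 ran from -2.02 to 0.77 (positive without untreated replicate 2). In whole libraries 0 became 1 without the filter and 2 with DESeq2. The causes were not tested.

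Replicates of the 2 groups share only a number, and same-numbered libraries deviated together with r = 0.252 over 16068 genes (2 pairs). With the replicate block 10 genes were called in neutrophils, 7 in macrophages, 4 in epithelial cells and 0 in T cells and whole libraries. Calls over all genes rose too, from 94 to 229, 818 to 1397, 1181 to 1971, 0 to 190 and 884 to 1593.

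In the T cell libraries the burst ratio of anti-PD1 to IgG was 0.175 at 4 or more genes and 0.137 without Isg15, and that of anti-CTLA4 was 1.08 and 1.04. At a 1.5-fold limit in T cells, 7 genes passed at 48 h (6 higher, 1 lower; 20.5% of all genes passed), 4 with IgG (12.3%), 10 with anti-PD1 (16.1%), 5 with anti-CTLA4 (1406 of 11698 genes) and 9 with both (11.5%). At the 2-fold limit with thinned counts, 2 passed at 48 h, against 1 unthinned, and 7 with both antibodies, against 6. The pooled table gave, in its first and second barcode set, sums of 23.1 and 9.485 UMIs per 10000 in neutrophils, 3.685 and 2.28 in macrophages, 6.23 and 2.13 in T cells and 4.60 and 1.23 in epithelial cells. DESeq2 moved the median change of all genes in neutrophils from 0.02 to -0.11. Cell number limits the bursts. No burst cell was found among 42 epithelial cells in doxorubicin replicate 1, which still allows a share of up to 7.14%. That is an approximate limit, lower than the exact binomial bound used elsewhere.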
